A study of Mus musculus with 2 samples.

Results

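The immediate early transcription factors of the AP-1 and Egr families were examined in a pair of RNA-seq libraries from cultured mouse B cell precursors. The group comprised 10 genes of the 20247 protein-coding genes with a deposited value: *Fos*, *Fosb*, *Fosl1* and *Fosl2* of the Fos family, *Jun*, *Junb* and *Jund* of the Jun family, and *Egr1*, *Egr2* and *Egr3* of the Egr family. The rule took genes by name and used no measured value, and each gene was represented by a single protein-coding RefSeq transcript. The unit throughout is FPKM, the number of sequenced fragments scaled to transcript length and library size, whose scaling by length permits comparison between genes.

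AP-1 is a dimer of basic leucine zipper (bZIP) proteins. A Jun protein pairs with itself, with a Fos protein or with a related bZIP partner, whereas Fos proteins do not form stable homodimers and need a partner. The Egr proteins are zinc finger activators that bind GC-rich sites and are held in check by Nab corepressors. Many genes of both families, though not all, are transcribed within minutes of mitogen, cytokine or stress signals that pass through the MAP kinases and serum response factor. The mRNAs of such genes are short-lived. In lymphocyte precursors, AP-1 and Egr proteins lie downstream of cytokine and antigen receptor signalling, and Egr1 is also known for a part in myeloid differentiation.

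Both cell types were progenitors of C57BL/6 background, arrested by a gene deletion and cultured on OP-9 stromal cells, a bone marrow stromal line, with Il-7 at 5 ng/mL. The *Ebf1* -/- pre-pro-B cells were null for *Ebf1*, the gene of a factor needed for B lineage commitment, were derived from female embryonic liver, and also received Scf and Flt3l at 10 ng/mL each. The *Rag2* -/- pro-B cells were null for the gene of a V(D)J recombinase subunit, were derived from adult male bone marrow, and received no further cytokine. Each cell type was measured in 1 library of rRNA-depleted total RNA, so no difference below has a replicate check and none was tested. Genotype, sex, age, tissue of origin, added cytokines and stage differ together between the libraries and cannot be told apart. In such bulk samples, fewer cells of a type and less RNA per cell cannot be told apart either.

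The labels give about 90 M single-end reads of 97 bp for each library. Read counts are not part of the files used here, and neither a depth for single values nor a detection floor is given. The error given is the 95% interval that Cuffdiff modelled from the single library, which is not a replicate error. *Ebf1* had 64.0 FPKM (interval 2.78 to 149) in the *Ebf1* -/- library and 273 FPKM (interval 8.50 to 729) in pro-B cells. *Rag2* had 22.9 FPKM (interval 1.75 to 44.3) in the *Rag2* -/- library and 34.5 FPKM (interval 2.88 to 66.7) in the pre-pro-B library. Each deleted gene thus had the lower value in its own library, with overlapping intervals and neither at 0. The B lineage markers fitted the labels, as 10 of 10 were higher in pro-B cells. Their summed level was 72.5 FPKM in the pre-pro-B library and 3194 FPKM in pro-B cells. *Ebf1* itself is among these 10 and gave 64.0 of the 72.5 FPKM. The next highest marker in the pre-pro-B library was *Blnk*, at 1.83 FPKM.

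Among the 10 genes, *Fosl2* was lower in pro-B cells, *Jun* was higher in pro-B cells, and no other gene passed the 2-fold threshold. Fold thresholds were applied to log2(FPKM + 1), which understates the change of low genes, and to genes with at least 1 FPKM in a library. By this measure 6 genes passed the limit on FPKM, of which 1 was higher, 1 was lower and 4 lay within 2-fold. Among all 10525 genes that passed, 12.2% were higher and 19.1% were lower in pro-B cells. The remaining 4 genes, *Fosb*, *Fosl1*, *Egr2* and *Egr3*, were below 1 FPKM in both libraries. *Fosl2* met the limit through the pre-pro-B library alone, whereas *Fos*, *Jun*, *Junb*, *Jund* and *Egr1* met it in both. The plot of FPKM by gene shows these levels with their intervals.

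**Figure D1:**
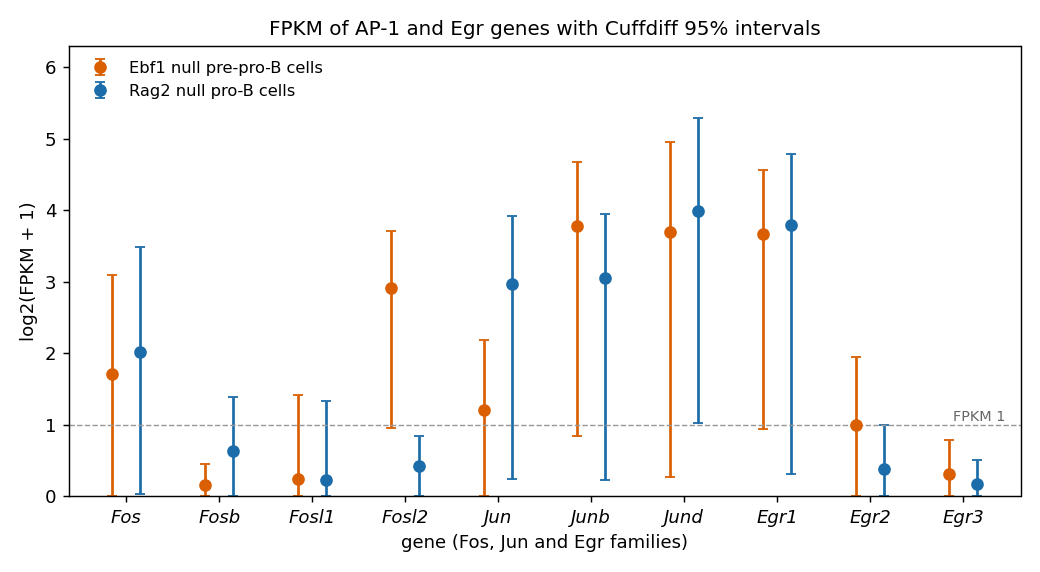
Level of each AP-1 and Egr gene as log2(FPKM + 1) (vertical axis) in the *Ebf1* null pre-pro-B library (orange) and the *Rag2* null pro-B library (blue), with the 95% interval from Cuffdiff as bars and a dashed line at 1 FPKM. The intervals of *Fosl2* are apart, at 0.937 to 12.2 FPKM and 0 to 0.802 FPKM, and those of the other 9 genes overlap.

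The intervals of 1 of the 10 transcripts, that of *Fosl2*, did not overlap between libraries. Over 12868 transcripts with at least 1 FPKM in a library, intervals were apart with the higher value in pro-B cells for 1.39% and with the lower value in pro-B cells for 2.99%. The lower limit was 0 for 6 of the 10 genes in the pre-pro-B library, for 5 in pro-B cells and for 4 in both, so most single values were loosely bounded.

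The regions upstream of *Fosl2* and *Jun* are shown because these were the genes past 2-fold. Each sequence covers 300 bases around the annotated start of transcription, 5′ to 3′ on the strand of the gene, and was taken from RefSeq promoters of GRCm38.p6. Each was found exactly once on its chromosome of mm9, at chr5:32438595-32438894 on the plus strand for *Fosl2* and at chr4:94718864-94719163 on the minus strand for *Jun*. Capitals mark the matches to the motifs searched.

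Fosl2: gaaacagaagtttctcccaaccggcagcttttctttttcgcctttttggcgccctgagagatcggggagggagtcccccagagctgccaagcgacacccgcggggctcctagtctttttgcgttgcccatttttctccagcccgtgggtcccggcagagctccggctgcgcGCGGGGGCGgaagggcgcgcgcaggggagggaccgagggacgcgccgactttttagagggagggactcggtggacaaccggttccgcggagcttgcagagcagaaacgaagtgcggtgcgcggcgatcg

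Jun: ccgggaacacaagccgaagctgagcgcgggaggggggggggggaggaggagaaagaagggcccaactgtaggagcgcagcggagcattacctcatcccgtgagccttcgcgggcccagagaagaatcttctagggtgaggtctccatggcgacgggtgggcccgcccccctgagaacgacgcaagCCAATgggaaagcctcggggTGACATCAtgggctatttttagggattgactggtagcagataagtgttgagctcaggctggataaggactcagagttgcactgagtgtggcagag

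The capitals in *Fosl2* are a match to the Egr motif GCGNGGGCG at bases 172 to 180 of the sequence, or positions -79 to -71 from the start site. Those in *Jun* are a CCAAT box at bases 186 to 190 and a match to the eight-base AP-1 and CREB motif TGACNTCA at bases 206 to 213, which is positions -45 to -38. The *Fosl2* sequence had a GC content of 64.7% with 32 CpG dinucleotides, and the *Jun* sequence 60.0% with 15, against medians of 52.7% and 7 over 32851 promoters of the same length. Of those promoters, 5.55% held GCGNGGGCG, 8.83% held TGACNTCA and 37.4% held CCAAT on either strand. A match is a description of the sequence and not a measured binding site.

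Promoters were searched for 7 of the 10 genes, 11 promoters in all, and *Fosl1*, *Egr1* and *Egr3* were not searched. GCGNGGGCG was also found in *Fosb*, CCAAT in *Junb* and *Egr2*, and TATAAA, present in 13.6% of all promoters, in *Fos* and *Junb*. The CArG box, the binding motif of serum response factor, was found in 4 promoters of *Egr2* and in no other promoter searched in the group. It was present in 1.63% of all promoters. The 4 promoters belong to 1 of the 7 genes and do not count as separate genes. Sequence more than 250 bases upstream of a start site was not searched, so a CArG box there would be missed. Neither the seven-base AP-1 motif TGANTCA, held by 7.81% of promoters, nor the Ebf1 motif TCCCNNGGGA, held by 0.904%, matched within these windows.

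Coordinates below are the mm9 loci deposited with each transcript, which can take in overlapping genes, and exon numbers are those of GENCODE on mm9. The Fos family supplies the obligate partners of AP-1, and its composition differed most between the cell types. *Fosl2* (NM_008037, 4 exons, chromosome 5 of mm9, 32438845 to 32460212), which encodes Fra-2, a Fos protein without the strong transactivation domain of c-Fos, had 6.54 FPKM (interval 0.937 to 12.2) in the pre-pro-B library and 0.338 FPKM (interval 0 to 0.802) in pro-B cells. The level was thus 19.4-fold lower in pro-B cells as a direct ratio, and -2.50 on the log2(FPKM + 1) scale. Its ratio lay at percentile 5.17 of all genes that passed the limit, and its level moved from percentile 30.9 in the pre-pro-B library to 7.51 in pro-B cells. Markers of other lineages moved with this difference: of 16 myeloid markers, 9 passed the limit and all 9 were lower in pro-B cells, with a summed level of 1260 FPKM in the pre-pro-B library and 12.5 FPKM in pro-B cells. Most of the myeloid sum in the pre-pro-B library came from *Tyrobp* (463 FPKM), *Fcer1g* (395 FPKM), *Fcgr3* (218 FPKM) and *Ccl3* (120 FPKM). In that library *Lyz2* had 5.39 FPKM, *S100a8* 1.24 FPKM, *Prtn3* 0.476 FPKM, *Csf1r* 0.170 FPKM and *Cd14* 0.0299 FPKM. Among the defining myeloid markers, *Lyz1*, *Elane*, *Ctsg* and *S100a9* were listed at 0 in both libraries. *Mpo* had 35.7 FPKM in the pre-pro-B library and 0.122 FPKM in pro-B cells. Of 7 progenitor markers, 6 passed and all 6 were lower in pro-B cells, from a sum of 1006 FPKM to 3.94 FPKM, with *Gata2* listed at 0 in both. The part of these cell states in the *Fosl2* difference was not tested.

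*Fos* (NM_010234, 4 exons, chromosome 12, 86814851 to 86818219), the prototype immediate early gene, had 2.27 FPKM (interval 0 to 7.51) in the pre-pro-B library and 3.03 FPKM (interval 0.0189 to 10.2) in pro-B cells. These values are 1.34-fold apart with broadly overlapping intervals, and both lay low among expressed genes, at percentiles 12.6 and 22.2. *Fosb* (NM_008036, 4 exons, chromosome 7, 19888045 to 19895394), a close relative of *Fos*, had 0.113 FPKM (interval 0 to 0.366) in the pre-pro-B library and 0.550 FPKM (interval 0 to 1.62) in pro-B cells. The direct ratio of 4.86 rests on values below 1 FPKM with both lower limits at 0. *Fosl1* (NM_010235, 4 exons, chromosome 19, 5447698 to 5457563), which encodes Fra-1 and overlaps Ccdc85b on the opposite strand, had 0.182 FPKM (interval 0 to 1.67) in the pre-pro-B library and 0.165 FPKM (interval 0 to 1.53) in pro-B cells. *Fosl1* held the next to last place in each library, and its intervals overlapped over nearly their whole range.

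Summed over the family, Fos genes had 9.11 FPKM in the pre-pro-B library and 4.09 FPKM in pro-B cells, which is 2.23-fold lower in pro-B cells. *Fosl2* made up 71.8% of the family sum in the pre-pro-B library and 8.26% in pro-B cells. *Fos* made up 24.9% in the pre-pro-B library and 74.2% in pro-B cells. By FPKM alone the leading Fos transcript was thus *Fosl2* in the former and *Fos* in the latter. The intervals of *Fosl2* and *Fos* overlapped within each library, so which of them leads is not resolved in either. The shares of *Fosb* went from 1.24% to 13.5% and those of *Fosl1* from 2.00% to 4.04%. A share can rise because another member falls, and the FPKM of *Fos* itself were within 2-fold.

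**Figure D2:**
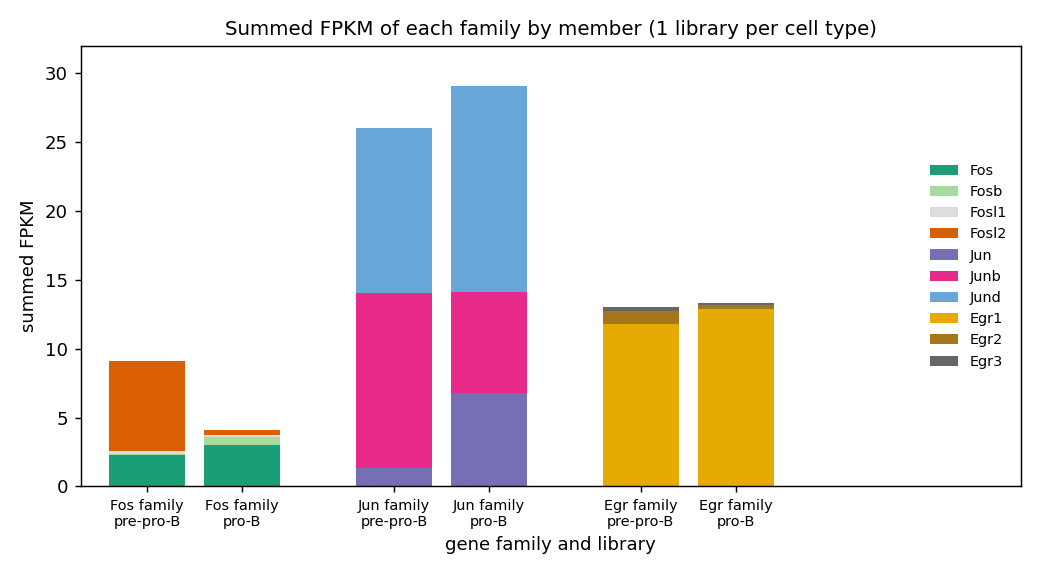
Summed FPKM (vertical axis) of the Fos, Jun and Egr families in the pre-pro-B and pro-B libraries, with each bar divided by gene. The Fos bar falls from 9.11 to 4.09 FPKM with a smaller *Fosl2* segment, whereas the Jun bars, at 26.02 and 29.1 FPKM, and the Egr bars, at 13.0 and 13.3 FPKM, are of near equal height.

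The Jun genes, the partners that can bind DNA as homodimers, are all single exon genes and had a higher summed level than the Fos genes in both libraries. *Jun* (NM_010591, chromosome 4, 94715727 to 94718913), which encodes the strong activator c-Jun, had 1.30 FPKM (interval 0 to 3.55) in the pre-pro-B library and 6.80 FPKM (interval 0.186 to 14.2) in pro-B cells. The level was 5.24-fold higher in pro-B cells as a direct ratio, and 1.76 on the log2(FPKM + 1) scale, with intervals that overlapped. Its ratio lay at percentile 94.4 of all genes that passed, and its level at percentile 6.96 in the pre-pro-B library and 36.7 in pro-B cells. *Jun* overlaps BC042782 on the opposite strand. The library was made with a strand-specific kit and its reads were aligned as stranded, while a strand setting for the Cuffdiff step is not given in the sources used here.

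Stromal genes went the same way as *Jun* in part. Of 15 OP-9 stromal markers, 11 had the higher value in pro-B cells and 9 passed the limit, of which 4 were higher (*Fn1*, *Cxcl12*, *Col1a2* and *Acta2*) and 2 were lower (*Pdgfrb* and *Thy1*). Among all genes that passed, 12.2% were higher and 19.1% were lower. *Cxcl12*, *Col1a2* and *Acta2* passed through the pro-B library alone, and *Pdgfrb* and *Thy1* through the pre-pro-B library alone. For these genes the limit allowed only 1 direction. *Fn1*, the fibronectin gene, had 1.16 FPKM in the pre-pro-B library and 5.16 FPKM in pro-B cells. *Col1a2* had 0.707 FPKM and 2.82 FPKM in the same order. All transcripts of the 4 higher genes had intervals that overlapped between libraries. Of the 2 lower genes, *Pdgfrb* had overlapping intervals and *Thy1* had intervals apart. The summed level of the list was 27.1 FPKM in the pre-pro-B library, of which *Pdgfrb* gave 15.9, and 21.1 FPKM in pro-B cells, and *Postn* and *Dcn* were listed at 0 in both. At harvest, stromal cells carried over were left to settle and attach to a clean flask before the suspended cells were taken. The part of residual stroma in the *Jun* difference was not tested.

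*Junb* (NM_008416, chromosome 8, 87500808 to 87502647), which restrains c-Jun activity and limits myeloid proliferation, had 12.7 FPKM (interval 0.795 to 24.7) in the pre-pro-B library and 7.33 FPKM (interval 0.172 to 14.5) in pro-B cells. The value was 1.74-fold lower in pro-B cells, within 2-fold and with overlapping intervals. *Jund* (NM_010592, chromosome 8, 73221638 to 73224515), the least inducible Jun gene, had 12.0 FPKM (interval 0.206 to 30.0) in the pre-pro-B library and 15.0 FPKM (interval 1.03 to 38.3) in pro-B cells. These values were 1.25-fold apart, and *Jund*, which overlaps Gm11175 on the opposite strand, was near the median of expressed genes in both libraries, at percentiles 47.7 and 57.0.

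The family sum of 26.02 FPKM in the pre-pro-B library and 29.1 FPKM in pro-B cells was 1.12-fold apart, while its makeup differed. *Jun* held 4.99% of the sum in the pre-pro-B library and 23.4% in pro-B cells, *Junb* held 49.0% and 25.2%, and *Jund* held 46.1% and 51.4%, in the same order. With the Fos family at a lower sum in pro-B cells, the ratio of summed Jun to summed Fos FPKM was 2.86 in the pre-pro-B library and 7.12 in pro-B cells. The sum of all AP-1 genes was 35.1 FPKM in the pre-pro-B library and 33.2 FPKM in pro-B cells.

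In the Egr family, *Egr1* was the main transcript of both libraries and lay within 2-fold. *Egr1* (NM_007913, 2 exons), an activator induced by growth factor signals, had 11.8 FPKM (interval 0.913 to 22.6) in the pre-pro-B library and 12.9 FPKM (interval 0.244 to 26.6) in pro-B cells. The ratio was 1.09, at percentile 62.9 of all genes that passed, and the gene held 90.5% of the family sum in the pre-pro-B library and 96.8% in pro-B cells. *Egr1* overlaps Gm17507 on the opposite strand.

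*Egr2* (NM_010118, 2 exons, chromosome 10, 67000617 to 67004936), known for its part in lymphocyte tolerance and in hindbrain patterning, had 0.998 FPKM (interval 0 to 2.87) in the pre-pro-B library and 0.302 FPKM (interval 0 to 0.999) in pro-B cells. It lay just under the limit of 1 FPKM, and the direct ratio of 3.31-fold lower in pro-B cells came with a pro-B interval inside the pre-pro-B interval. *Egr3* (NM_018781, 2 exons, chromosome 14, 70477252 to 70479964), a relative of *Egr2* with overlapping roles in lymphocytes, had 0.235 FPKM (interval 0 to 0.725) in the pre-pro-B library and 0.122 FPKM (interval 0 to 0.419) in pro-B cells. The family sum was 13.0 FPKM in the pre-pro-B library and 13.3 FPKM in pro-B cells, with *Egr1* higher and *Egr2* and *Egr3* lower in the latter.

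The order of levels was *Junb*, *Jund*, *Egr1*, *Fosl2*, *Fos*, *Jun*, *Egr2*, *Egr3*, *Fosl1* and *Fosb* in the pre-pro-B library, and *Jund*, *Egr1*, *Junb*, *Jun*, *Fos*, *Fosb*, *Fosl2*, *Egr2*, *Fosl1* and *Egr3* in pro-B cells, from high to low. All 9 pairs of neighbours in each order had overlapping intervals. Of the 45 pairs of genes, 6 had intervals apart in the pre-pro-B library, where *Junb*, *Egr1* and *Fosl2* each lay above *Fosb* and *Egr3*. In pro-B cells 3 of 45 pairs were apart, with *Jund* above *Fosl2*, *Egr2* and *Egr3*. The interval of *Fosl2* overlapped those of *Fosl1* and *Egr2* in both libraries. *Junb*, *Jund* and *Egr1* held the highest 3 places in both libraries, and their order among themselves is not resolved by the intervals.

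**Figure D3:**
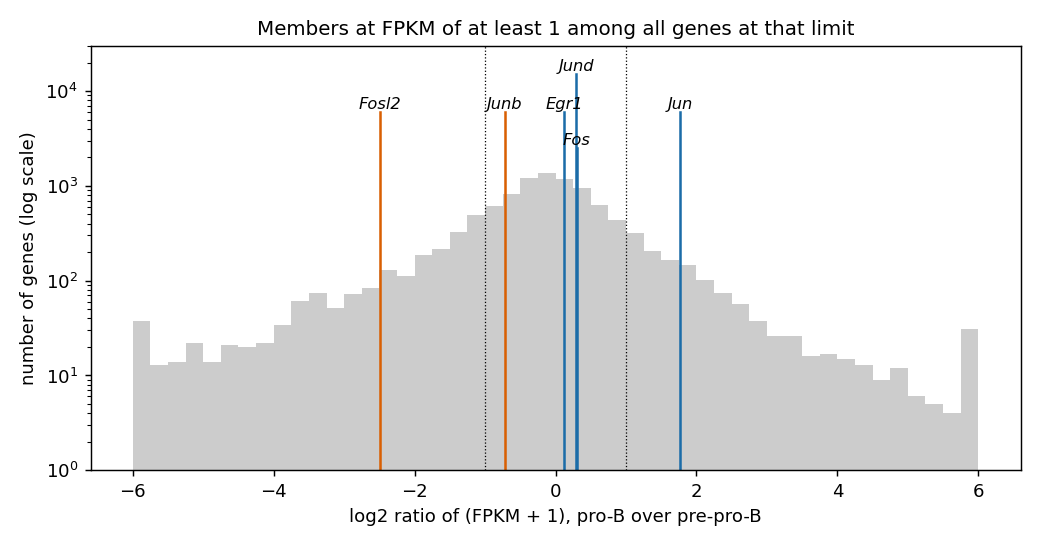
Histogram of the log2 ratio of (FPKM + 1), pro-B over pre-pro-B (horizontal axis), for the 10525 genes with at least 1 FPKM in a library (vertical log axis, number of genes), with the AP-1 and Egr genes that passed as vertical lines whose heights only separate the names. Ratios beyond 6 in size are counted in the outermost bins and dotted lines mark 2-fold, outside which lie *Fosl2* at -2.50 and *Jun* at 1.76.

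Genes around AP-1 and Egr were examined in 4 lists. Over all genes that passed, the median log2 ratio was -0.14, and with 19.1% lower and 12.2% higher in pro-B cells falls outnumbered rises in general. The list of other bZIP genes, drawn broadly and not limited to partners or competitors of Jun and Fos, leaned the same way as all genes. Of 25 listed, 24 matched, 21 passed, 6 fell, 1 rose and 14 lay within 2-fold, with a median of -0.66. *Nfil3*, a repressor needed for natural killer and innate lymphoid cells, fell from 16.6 FPKM in the pre-pro-B library to 0.299 FPKM in pro-B cells, with overlapping intervals. *Nfe2*, the p45 factor of megakaryocytes and erythroid cells, fell from 12.1 FPKM (interval 0.450 to 31.8) to 0.0207 FPKM (interval 0 to 0.0948), with intervals apart. *Batf*, a Jun partner of lymphoid and dendritic cells that lacks a transactivation domain, fell from 7.13 FPKM to 0.619 FPKM, with overlapping intervals.

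*Maff*, a small Maf protein, fell from 3.72 FPKM to 0.271 FPKM, with overlapping intervals. Like *Fosl2*, all 4 of these genes passed the limit through the pre-pro-B library alone. *Atf4*, the stress-response activator, was the most abundant bZIP gene of the list in both libraries, with 104 FPKM in the pre-pro-B library (interval 4.15 to 219) and 153 FPKM in pro-B cells (interval 4.37 to 333), within 2-fold. *Atf6* and *Mafk* also fell, and *Atf3*, a stress-induced repressor, was the gene that rose, to 1.29 FPKM in pro-B cells. *Atf3* passed the limit through the pro-B library alone. The summed level of the list was 484 FPKM in the pre-pro-B library and 489 FPKM in pro-B cells.

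The upstream activators, the MAP kinase cascades and serum response factor with its cofactors, were mostly within 2-fold. All 26 matched and passed, 3 fell, 0 rose and 23 lay within 2-fold, with a median log2 ratio of -0.20. *Rps6ka1*, the Rsk1 kinase that acts below Erk, fell from 30.5 FPKM (interval 1.54 to 73.4) to 6.98 FPKM (interval 0.0882 to 18.6). *Mapk8*, the gene of Jnk1, a kinase that phosphorylates c-Jun, fell from 28.0 FPKM to 12.9 FPKM, and *Mkl1*, a cofactor of serum response factor, from 7.34 FPKM to 2.99 FPKM. Of the 2 *Mkl1* transcripts, NM_153049 fell from 4.96 FPKM to 0.00041 FPKM, whereas NM_001082536 had 2.38 FPKM and 2.99 FPKM in the same order. *Mkl1* was therefore not called lower when only its most abundant transcript was used. The intervals of *Mapk8* overlapped (5.95 to 49.6 FPKM and 2.35 to 23.4 FPKM). Both *Mapk8* and *Mkl1* came within 2-fold when the libraries were rescaled by the median ratio. *Elk4*, another cofactor of serum response factor, had the highest mean level of the list, with 79.1 FPKM in the pre-pro-B library (interval 14.0 to 144) and 129 FPKM in pro-B cells (interval 9.81 to 252). *Srf* itself had 6.15 FPKM and 7.80 FPKM, in the same order, and was named after its values were seen.

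The feedback inhibitors, phosphatases, adaptors, corepressors and RNA-binding proteins that end the immediate early response, went both ways. All 20 matched and passed, 6 rose, 4 fell and 10 lay within 2-fold, with a median log2 ratio of 0.04. *Dusp6*, a cytoplasmic phosphatase of Erk, rose from 11.5 FPKM (interval 1.60 to 21.4) in the pre-pro-B library to 116 FPKM (interval 27.2 to 204) in pro-B cells, which is 10.0-fold, with intervals apart. *Spred2*, an inhibitor of Ras signalling, rose from 0.983 FPKM to 7.21 FPKM, with overlapping intervals. *Dusp7*, a phosphatase of the same class as *Dusp6*, fell from 30.5 FPKM (interval 4.48 to 56.7) to 2.13 FPKM (interval 0 to 5.51), with overlapping intervals.

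*Dusp6* and *Dusp7* therefore went opposite ways in the same pair of libraries. *Zfp36l2*, which binds AU-rich elements and speeds mRNA decay, had the highest mean level of the list and fell from 126 FPKM (interval 26.5 to 224) to 19.8 FPKM (interval 3.61 to 35.4). *Dusp1*, *Dusp4*, *Spred1* and *Spry4* were the others that rose, and *Dusp5* and *Errfi1* the others that fell. *Dusp1*, *Dusp4*, *Spred2* and *Spry4* passed the limit through the pro-B library alone, and *Dusp5* and *Errfi1* through the pre-pro-B library alone. The summed level was 363 FPKM in the pre-pro-B library and 383 FPKM in pro-B cells.

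Other immediate early genes also had more falls than rises, as did all genes. Of 25 listed, all matched, 19 passed, 8 fell, 2 rose and 9 lay within 2-fold, with a median log2 ratio of -0.44. *Rhob*, a small GTPase gene, fell from 10.6 FPKM (interval 1.10 to 20.1) in the pre-pro-B library to 0.909 FPKM (interval 0 to 1.92) in pro-B cells. *Klf2*, a quiescence factor of lymphocytes, fell from 7.55 FPKM to 1.35 FPKM, and *Nr4a1*, an orphan nuclear receptor induced by antigen receptor signals, from 5.37 FPKM to 0.803 FPKM, both with overlapping intervals. *Gadd45a*, a growth arrest gene, rose from 5.18 FPKM (interval 0 to 12.4) to 31.9 FPKM (interval 3.94 to 59.8).

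*Mcl1*, the anti-apoptotic Bcl-2 relative, was the most abundant of the list at 146 FPKM in the pre-pro-B library and 108 FPKM in pro-B cells, within 2-fold. *Btg1* was the other gene that rose, and *Myc*, *Gadd45b*, *Ier3*, *Nr4a2* and *Klf4* also fell. Of the genes that fell, *Rhob*, *Nr4a1*, *Nr4a2* and *Klf4* passed the limit through the pre-pro-B library alone. The summed level was 381 FPKM in the pre-pro-B library and 385 FPKM in pro-B cells. The plot of ratios by list shows the spread of all 4 lists.

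**Figure D4:**
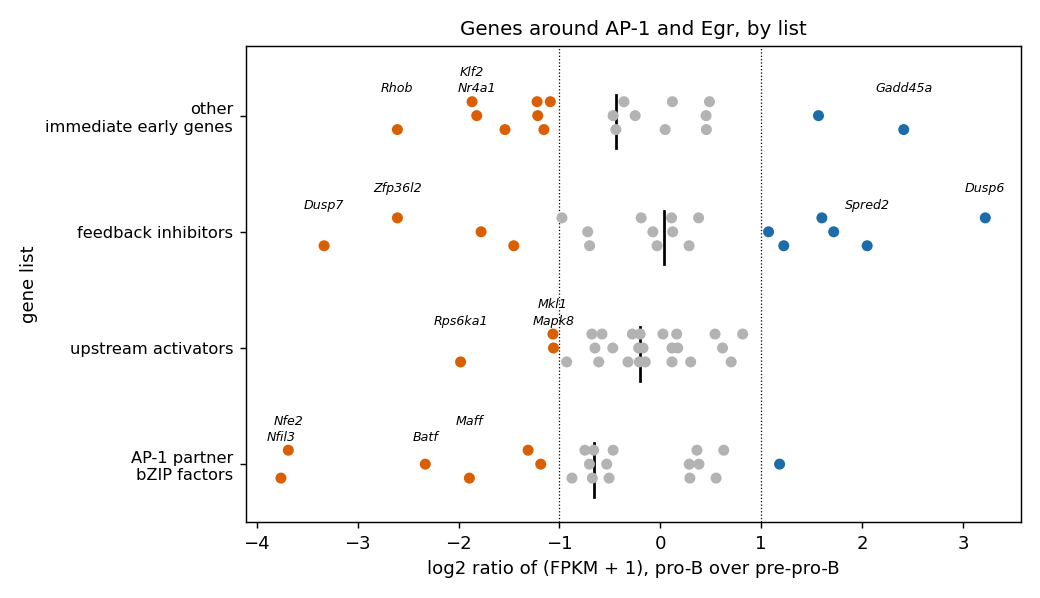
Log2 ratio of (FPKM + 1), pro-B over pre-pro-B (horizontal axis), for the genes of 4 lists that had at least 1 FPKM in a library, 1 point per gene, with black bars at the medians of -0.66, -0.20, 0.04 and -0.44 from the bottom row to the top. Orange points fell and blue points rose by 2-fold or more in pro-B cells, vertical offsets within a row carry no meaning, and the genes with the largest ratios are named.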

How the data were processed

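RNA-seq of rRNA-depleted total RNA was analysed from 1 *Ebf1* -/- pre-pro-B library and 1 *Rag2* -/- pro-B library. The deposited FPKM and their 95% limits were made by the authors, who trimmed reads, aligned them to mm9 and estimated RefSeq transcripts with Cuffdiff. The submitters' processing notes name TopHat 1.5 and Cuffdiff 2.1.1. A further deposited table, with the authors' fold changes, p-values, q-values and a second copy of FPKM, was not used, which left 2 per-sample columns unused.

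Of 30485 transcripts, 26968 were protein-coding and 26555 had a symbol in a RefSeq gene table. FPKM were summed per gene over 20247 genes, after 3 genes with a failed estimate were left out. Log2 ratios used a pseudocount of 1, genes needed at least 1 FPKM in a library, and 2-fold was the threshold. With 1 library per cell type no test was made. The members and gene lists were chosen with earlier results of these data known. All members were named, and from each list the 4 largest ratios past 2-fold and the gene with the highest mean FPKM. Promoters came from RefSeq (GRCm38.p6), and gene models from GENCODE on mm9. Alternatives changed the pseudocount, FPKM limit, fold threshold, scaling and transcript choice. Scripts used Python 3.11.15, numpy 2.4.6, pandas 2.3.3 and matplotlib 3.10.9, and were tested on simulated data.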

Additional observations from a re-analysis of the deposited data

How the results depend on the processing

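No paired analysis was possible because each cell type has 1 library, and no library could be left out. The interval limits bound the single values only, and several start at 0. Of 93 alternatives of the counts, 73 stayed within 1.5 times the reported count and 20 did not. Requiring 1 FPKM in both libraries left 0 members lower (*Fosl2* was lost), bZIP factors at 0 higher and 2 lower, feedback inhibitors at 2 higher and 2 lower, other immediate early genes at 4 lower, and 918 genes higher and 998 lower among all genes (reported 1283 and 2011). At 1.5-fold, members lower were 2 (*Junb* was added), bZIP factors 2 higher and 11 lower, upstream activators 3 higher and 7 lower, feedback inhibitors 7 lower, and all genes 2113 higher and 3134 lower. At 3-fold, bZIP factors were 0 higher, upstream activators 1 lower, other immediate early genes 1 higher and 3 lower, and all genes 692 higher and 1114 lower. Without a pseudocount, bZIP factors were 10 lower and upstream activators 1 higher, and a pseudocount of 0.1 also gave 1 upstream activator higher. Rescaling to TPM moved the median log2 ratio of all genes by -0.12 and by the median ratio by 0.08, and under the latter 1 upstream activator was lower (*Mapk8* and *Mkl1* were lost, as at 3-fold). The added limit of 0.5 FPKM for the members was chosen after seeing the data. Of 65 alternatives of the 10 members' log2 ratios, 60 stayed within the range set by the gene's interval limits with a pseudocount of 1. The other 5 were those of *Fosb* (1.61 and 2.28), *Fosl2* (-3.92 and -4.28) and *Egr3* (-0.94), and no ratio changed sign. All 5 used a pseudocount of 0.1 or none, so they lie on another scale than that range. They do not show values outside the intervals. The ratio of *Egr2*, within its wide range, went from -0.62 to -1.73 without a pseudocount, and that of *Fosl2* to -3.46 as TPM. The ratio of *Jun* ranged from 1.76 to 2.39, that of *Fosl2* from -4.28 to -2.47 and that of *Egr1* from 0.01 to 0.20.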

Other observations

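AU-rich sequence in the 3′ UTR, a known determinant of rapid mRNA decay, was counted in the longest coding transcript of each gene in a GENCODE annotation of mm9. The pentamer ATTTA was present in 9 of the 10 AP-1 and Egr genes, or 90%, against 68.5% of 9249 genes with at least 1 FPKM in a library and an annotated 3′ UTR. The longer TATTTAT was present in 6 of 10, or 60%, against 28.5%. The sets are not alike, as 4 of the 10 genes were below 1 FPKM in both libraries. The median 3′ UTR length was 1007.5 bases for the 10 genes and 1094 bases for the 9249. *Fosl2* held 8 copies of ATTTA and 3 of TATTTAT in a 3′ UTR of 4642 bases, *Fos* held 4 and 2 in 815 bases, and *Jun* held 4 and 1 in 1233 bases. *Egr3* was the gene without ATTTA, in an annotated 3′ UTR of 252 bases. Length differs between genes and raises the number of matches, and neither decay nor its rate was measured here.

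Heat shock and stress genes, which respond to culture and handling, were listed beside the immediate early genes. Of 11 genes, 7 passed the limit on FPKM, 2 fell, 0 rose and 5 lay within 2-fold, with a median log2 ratio of -0.38. Among all genes that passed, 19.1% fell and 12.2% rose. *Hspa8*, the constitutive Hsc70 chaperone, fell from 102 FPKM in pre-pro-B cells to 27.1 FPKM in pro-B cells, and *Sqstm1*, an autophagy receptor, from 103 FPKM to 45.9 FPKM. The intervals of both genes overlapped between libraries. The inducible *Hspa1a* and *Hspa1b* were below 1 FPKM in both libraries, with at most 0.259 FPKM. Both genes that fell and these inducible genes were named after their values were seen, and the part of handling in the AP-1 and Egr levels was not tested.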
